A study of Mus musculus with 52 samples.

Results

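The genes that encode the subunits of voltage-gated sodium and calcium channels were examined across 3 brain regions of mice infused with saline or insulin. They were chosen by name: the protein-coding genes of the deposited count table whose symbols follow the patterns of the sodium channel genes (Scn with a number and a or b) and of the calcium channel genes (Cacna1, Cacna2d, Cacnb and Cacng). The rule found 40 of the 46071 genes in the table, and no measured value entered it. They comprise 10 sodium channel alpha, 4 sodium channel beta, 10 calcium channel alpha1, 4 alpha2delta, 4 calcium channel beta and 8 gamma subunit genes. All mice were males of 3 months of the inbred strain C57BL/6J that had a catheter in the jugular vein and stayed conscious. They were infused for 3 h with saline or with insulin at a low rate of 4 mU/kg/min or a high rate of 12 mU/kg/min. Glucose was infused alongside to keep blood glucose level (a clamp). The hypothalamus gave 5 saline, 6 low-rate and 5 high-rate libraries, and the hippocampus and the nucleus accumbens gave 6 libraries of each infusion. The labels do not say that libraries came from separate mice or whether regions share mice, so the p-values measure only the spread between these libraries.

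Voltage-gated sodium channels carry the inward current that starts and propagates the action potential. Each has a large pore-forming alpha subunit, and small beta subunits adjust its gating and tie it to the cell surface and to neighbouring cells. Voltage-gated calcium channels turn a depolarisation into calcium entry, which drives transmitter release, dendritic signalling and gene expression. Their alpha1 subunit forms the pore and sets the class (L, P/Q, N, R or T), the intracellular beta and the extracellular alpha2delta subunits bring the channel to the membrane, and most brain gamma proteins serve as auxiliary subunits of AMPA-type glutamate receptors.

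The libraries held 2453412 to 8279612 counted reads each, 4654641.5 at the median. Levels are given as CPM, counts scaled to a common library size with TMM factors, and, where genes are set against each other, per kilobase of exon (RPKM). A floor of 3 counts corresponded to 0.362 to 1.22 CPM. Under saline, the summed levels of the marker lists given here were highest in the region that the label names. The summed level of 5 hypothalamic peptide genes was 805 to 1606 CPM in the hypothalamus and at most 38.5 CPM elsewhere. That of 6 striatal genes was 826 to 1457 CPM in the nucleus accumbens and at most 114 CPM elsewhere. That of 5 cortical and hippocampal excitatory genes was 1348 to 2625 CPM in the hippocampus and at most 933 CPM elsewhere. Single genes did not all follow. Of 5 other hippocampal genes, all 5 were called lower in the hypothalamus than in the hippocampus by the test given below. In the accumbens 4 of these were called lower than in the hippocampus and 1, Wfs1, higher. Some libraries stood apart. Of the hypothalamic libraries, low-rate 1, 2 and 6 and high-rate 3 and 5 had at least 1 of the 5 peptide genes under 1 CPM. In the accumbens 5 libraries, saline 1 and 3 among them, held the cortical gene Neurod6 above 5 CPM. Hypothalamic low-rate library 2, with 3 peptide genes under 1 CPM, also held Neurod6 above that level, at 6.12 CPM. In 10 of the 52 libraries counts leaned towards GC-rich transcripts, with a correlation above 0.4 between transcript GC content and deviation from the region's mean. They included hypothalamic saline libraries 1, 2 and 5 and no insulin library of that region.

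Several members lie close together and resemble each other in sequence, which matters because the counting assigned reads to genes. On chromosome 2 of the mouse build GRCm38, Scn3a (65457118 to 65567627, minus strand), Scn2a (65620771 to 65767447, plus strand), Scn1a (66270778 to 66440840, minus strand), Scn9a (66480080 to 66634962, minus strand) and Scn7a (66673425 to 66784914, minus strand) lie in this order, with the widest gap between Scn2a and Scn1a. A word of 50 bases, the length of a read, that occurs in 2 genes cannot tell them apart. Such words made up little of these transcripts: 5.48% of the 50-base words of Scn1a, 7.87% of those of Scn2a, 8.53% of those of Scn3a and 5.53% of those of Scn9a also occur in another gene. The share was 0.0527% for Scn8a, the only sodium channel gene among the members on chromosome 15. For Cacnb4, at 52428320 to 52676831 on the minus strand of chromosome 2, the share was 16.5%, and some of its words recur in 519 other genes. Words were sought in both orientations, so a gene on the opposite strand counts towards the share. Another gene on the opposite strand covers 16.0% of the exon bases of Cacnb4 and 20.0% of those of Cacna1s. Of the words of Cacna1s, 16.4% occur in 1 other gene. For both genes the shared words and the overlap can be the same bases, so they are not separate amounts. Whether the counting used strand is not given in the sources used here. The levels of Scn1a, Scn2a, Scn3a, Scn9a, Cacnb4 and Cacna1s carry that uncertainty.

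The 250 bases ahead of the RefSeq starts of Scn1a and Scn2a (build GRCm38.p6) are shown because both genes rose at the low insulin rate in the hypothalamus. CpG pairs are in capitals. The Scn1a stretch is chr2:66440838-66441087, minus strand, and the Scn2a stretch is chr2:65620519-65620768, plus strand.
Scn1a: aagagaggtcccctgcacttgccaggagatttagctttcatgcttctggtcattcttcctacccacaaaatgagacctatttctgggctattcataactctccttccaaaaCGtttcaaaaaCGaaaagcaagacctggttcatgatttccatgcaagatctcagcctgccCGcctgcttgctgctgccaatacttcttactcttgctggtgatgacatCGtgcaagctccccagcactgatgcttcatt
Scn2a: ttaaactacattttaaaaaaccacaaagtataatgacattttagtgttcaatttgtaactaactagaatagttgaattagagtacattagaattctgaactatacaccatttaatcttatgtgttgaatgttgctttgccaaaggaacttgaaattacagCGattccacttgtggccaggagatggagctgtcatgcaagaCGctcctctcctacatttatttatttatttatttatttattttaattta
The Scn1a stretch holds 4 CpG pairs and 46.8% GC, and the Scn2a stretch holds 2 CpG pairs and 29.6% GC. RefSeq windows of 300 bases (250 before and 50 after a start) were at hand for 30 of the 40 members, in 41 windows. Their median was 9 CpG pairs, against 7 over all 32841 windows. Searched on both strands, the FOXO core GTAAACA occurred in 0 of the 41 windows (3.65% of all windows), the full cyclic AMP response element TGACGTCA in 0 (1.79%), the E-box CACGTG in 0 (7.15%) and the sterol element core CACCCCAC in 1, that of Scn9a (2.87%). The short response element TGACG, which also lies inside the full one, occurred in 6 windows (20.8% of all windows), those of Cacna1b, Cacna1c, Cacna1i, Cacna2d1, Cacnb2 and Scn10a. The TATA box TATAAA occurred in 2 (13.6%), those of Cacna1d and of a later start of Scn2a.

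Under saline, 24 of the 32 members tested differed between hypothalamus and hippocampus, 8 higher and 16 lower in the hypothalamus (edgeR's quasi-likelihood test, Benjamini-Hochberg adjusted p under 0.05 over 14093 genes). That is 75% of them, where 44.1% of all genes tested were called, 22.9% higher and 21.1% lower. Between nucleus accumbens and hippocampus 19 of 32 members differed (11 higher, 8 lower in the accumbens, 59.4% against 27.9% of all genes, which split into 14.2% and 13.7%), and between nucleus accumbens and hypothalamus 14 (10 higher, 4 lower, 43.8% against 29% of all genes, which split into 13.9% and 15.1%). The 3 comparisons share libraries. The groups did not overlap for 18, 11 and 10 members, against 25.4%, 17.1% and 14.7% of all genes. The median member difference was -0.27, 0.05 and 0.18 on the log2 scale, against 0.05, 0.00 and -0.05 for all genes. Hypothalamic saline libraries 1, 2 and 5 lean towards GC-rich transcripts. Spearman's rho between log2 difference and GC content was 0.195, -0.158 and -0.409 over 14039 genes, and -0.0436, -0.15 and -0.217 across the 32 members. Without the GC-leaning libraries the calls over all genes went from 6212, 3930 and 4092 to 4885, 4647 and 1723. In bulk tissue, fewer cells of a type and less RNA per cell cannot be told apart. The summed level of 5 neuronal markers was also lowest in the hypothalamus (3031 to 4008 CPM). It was 3974 to 6044 CPM in the accumbens and 5108 to 6988 CPM in the hippocampus. Single markers did not all follow the sum. Stmn2 was called higher in the hypothalamus than in the hippocampus, and Snap25, Syt1 and Rbfox3 were called lower there. Against the hypothalamus, Snap25 and Syt1 were called higher in the accumbens and Stmn2 and Syp lower, with a median of 0.08. The part of these markers in the regional differences was not tested.

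**Figure D1:**
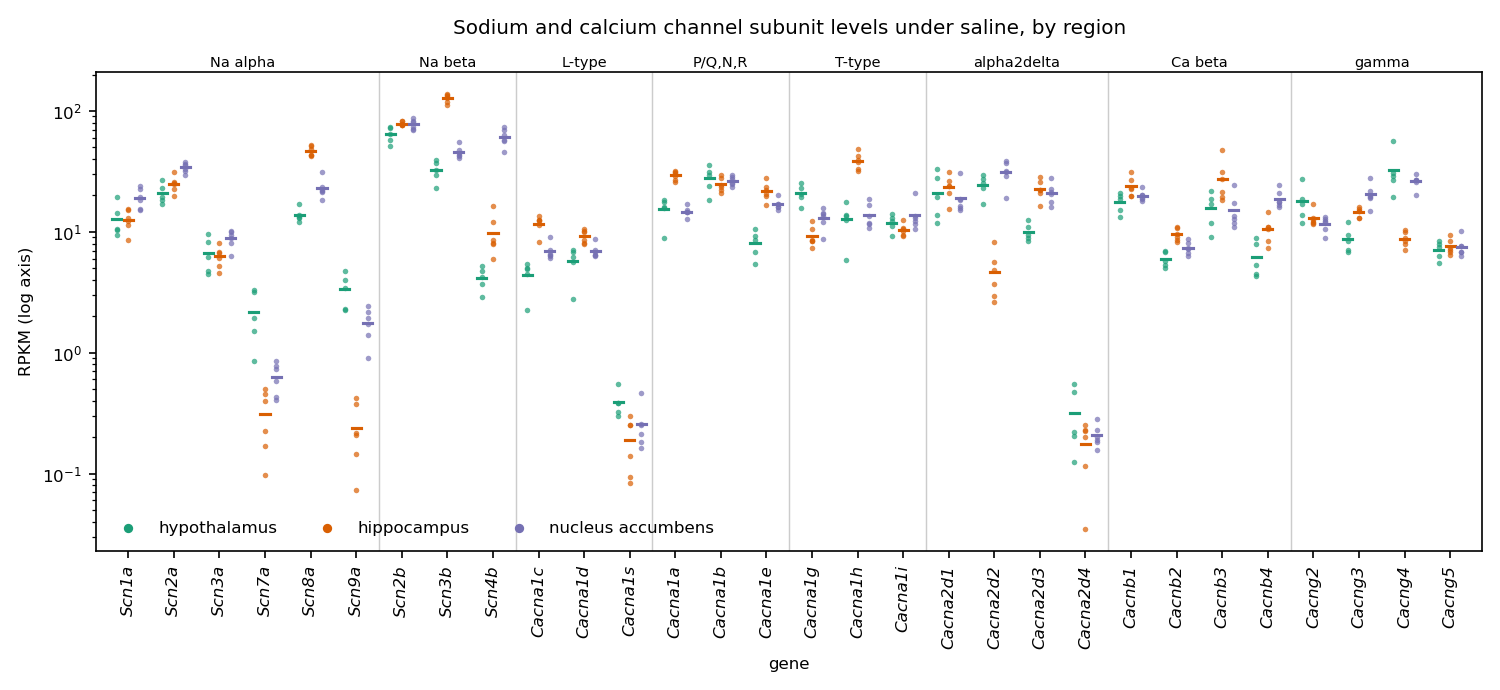
Level of 30 members under saline in each region, in RPKM on a log axis, grouped by subfamily. Each dot is a library and each short line the mean of a region (5 hypothalamic, 6 hippocampal and 6 accumbens libraries). Scn9a, Cacna2d2 and Cacng4 sit far lower in the hippocampus than in the other regions, and Scn4b sits highest in the accumbens.

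Among the sodium channel alpha subunits, the hippocampus was dominated by Scn8a (Nav1.6), the main channel of mature axon initial segments and nodes. Scn8a stood at 673 to 825 CPM with a median of 726 in the hippocampus, at 204, 188, 208, 267 and 219 CPM in hypothalamic libraries 1 to 5, and at 291 to 496 CPM with a median of 348 in the accumbens. The 3 regions did not overlap. The difference was -1.76 ± 0.14 (SE, adjusted p = 2.43e-09) on the log2 scale for hypothalamus minus hippocampus, -1.02 ± 0.13 (SE, adjusted p = 2.06e-06) for accumbens minus hippocampus and 0.75 (adjusted p = 3.01e-04) for accumbens minus hypothalamus. Of the summed RPKM of the 10 alpha subunit genes, Scn8a took 51.3% ± 4.30 (SD, n = 6) in the hippocampus, 21.2% ± 2.83 (SD, n = 5) in the hypothalamus and 24.9% ± 5.87 (SD, n = 6) in the accumbens. In these last 2 regions the highest alpha subunit was Scn2a (Nav1.2), which is found in axons and dendrites of principal cells, at 20.9 ± 4.01 RPKM (SD, n = 5) and 34.1 ± 2.99 RPKM (SD, n = 6). The hippocampal level of Scn2a was 25.0 ± 3.78 RPKM (SD, n = 6), below that of Scn8a at 46.9 ± 4.29 RPKM (SD, n = 6).

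Other alpha subunits, Scn9a and Scn7a, were far lower in the hippocampus than in the hypothalamus. Scn9a (Nav1.7), best known from pain-sensing neurons, stood at 43.7, 29.0, 60.7, 50.7 and 29.4 CPM in the hypothalamus, 11.6 to 31.3 CPM with a median of 23.3 in the accumbens and 0.924 to 5.34 CPM with a median of 2.70 in the hippocampus. Scn9a differed from the hippocampus by 3.74 ± 0.32 (SE, adjusted p = 1.12e-08) in the hypothalamus and 2.83 ± 0.32 (SE, adjusted p = 6.21e-07) in the accumbens. Accumbens minus hypothalamus was -0.91 ± 0.27 (SE, adjusted p = 0.0158) for Scn9a, a call that was lost without hypothalamic saline library 3 (-0.70, adjusted p = 0.0542) and without the accumbens libraries that hold Neurod6 (-0.64, adjusted p = 0.094), and missed it with the tag run as a term (-0.86, adjusted p = 0.0513). Scn7a (Nax), which senses extracellular sodium in glia of the organs around the ventricles, stood highest in the hypothalamus, at 14.3, 11.0, 24.1, 23.2 and 6.25 CPM against 0.714 to 3.68 CPM with a median of 2.29 in the hippocampus and 2.98 to 6.31 CPM with a median of 4.79 in the accumbens. Its differences were 2.74 ± 0.37 (SE, adjusted p = 3.92e-06) for hypothalamus minus hippocampus and -1.73 ± 0.33 (SE, adjusted p = 6.69e-04) for accumbens minus hypothalamus. The lowest hypothalamic value of Scn7a came from library 5.

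Scn1a (Nav1.1), prominent in fast-spiking interneurons, and Scn3a (Nav1.3), an alpha subunit of developing neurons, differed less between regions. Scn1a stood at 115, 106, 161, 216 and 119 CPM in hypothalamic libraries 1 to 5, at 96.1 to 173 CPM with a median of 141 in the hippocampus and at 169 to 267 CPM with a median of 211 in the accumbens. It was higher in the accumbens than in the hippocampus by 0.60 ± 0.18 (SE, adjusted p = 0.0145), and the groups overlapped. The call against the hypothalamus, 0.58 (adjusted p = 0.0263), held in 19 of 26 alternative fits and the difference was -0.15 (adjusted p = 0.344) when regions were averaged over the 3 infusions. Scn3a passed for accumbens against hippocampus at 0.50 (adjusted p = 0.0480) and kept that call in 14 of 26 alternative fits. Scn2a was higher in the accumbens than in the hippocampus (0.45, adjusted p = 0.00951) and the hypothalamus (0.71, adjusted p = 5.80e-04), but neither call held when regions were averaged over the infusions (0.24, adjusted p = 0.0913, and 0.14, adjusted p = 0.373). The alpha subunits of muscle and sensory neurons, Scn4a, Scn10a and Scn11a, were too low to be tested between regions under saline. They had 115, 166 and 237 counts over all 52 libraries. Scn11a had 0 counts in all 6 hippocampal saline libraries and was counted in all 5 hypothalamic ones, at up to 3.14 CPM. It was also found in the accumbens. Over all infusions its mean was 1.13 CPM there, with 0 counts in 1 of 18 libraries, and 1.59 CPM in the hypothalamus.

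**Figure D2:**
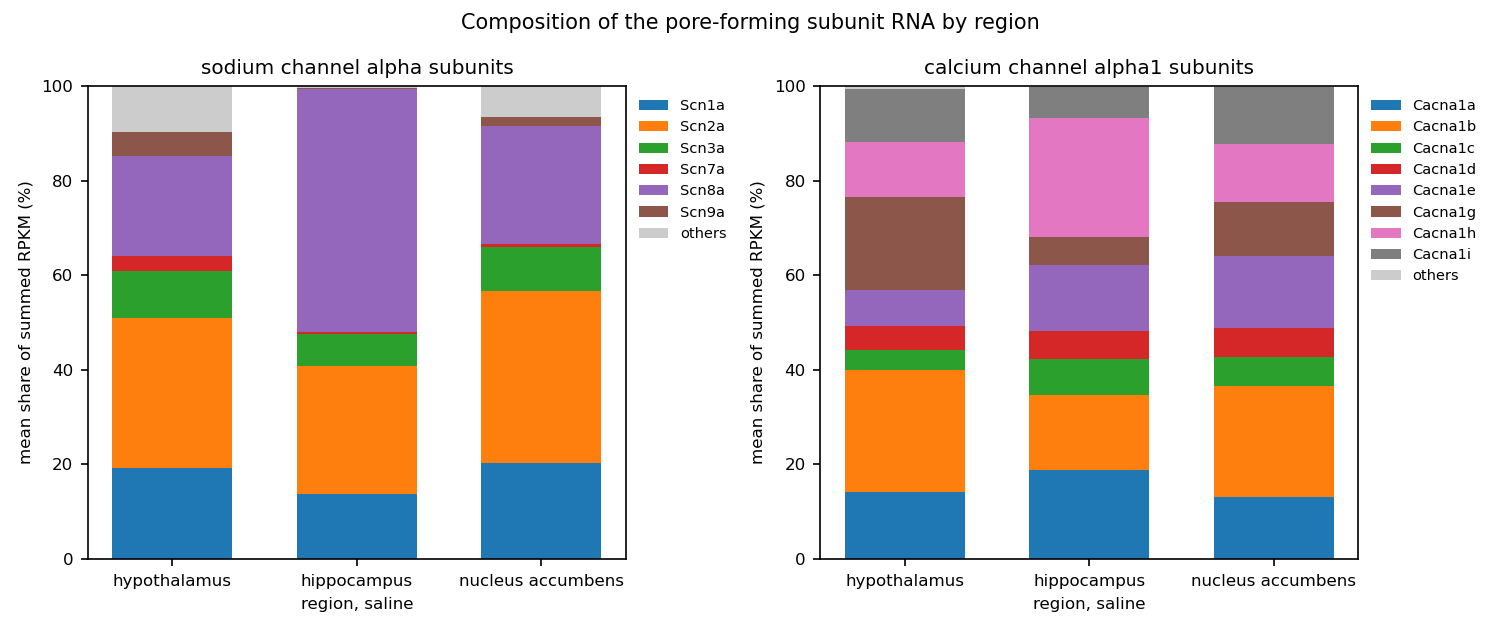
Mean share of the named pore-forming genes, with the rest in light grey, in the summed RPKM of its family under saline, in percent, stacked by region, for sodium channel alpha and calcium channel alpha1 genes (5 hypothalamic, 6 hippocampal and 6 accumbens libraries). Scn8a makes up 51.3% of the sodium channel bar in the hippocampus, and Cacna1h makes up 25% of the calcium channel bar there.

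The sodium channel beta subunits, which tune gating and act as adhesion molecules, included Scn2b, Scn3b and Scn4b, each lower in the hypothalamus than in the hippocampus, Scn2b by the least of these (-0.29, adjusted p = 0.0348). Scn3b stood at 162, 176, 202, 216 and 125 CPM in hypothalamic libraries 1 to 5 and 222 to 304 CPM with a median of 239.8 in the accumbens, against 611 to 758 CPM with a median of 711 in the hippocampus. The groups did not overlap between hippocampus and either other region, with differences of -1.98 ± 0.14 (SE, adjusted p = 4.84e-10) and -1.48 ± 0.13 (SE, adjusted p = 1.17e-08). Scn4b, the subunit tied to the resurgent sodium current, was the accumbens member of the family. It stood at 227 to 369.6 CPM with a median of 302 there, at 29.6 to 81.6 CPM with a median of 41.5 in the hippocampus and at 23.4, 21.0, 14.5, 25.9 and 18.3 CPM in the hypothalamus, so no accumbens library overlapped another region. The differences were 3.89 ± 0.24 (SE, adjusted p = 2.97e-10) for accumbens minus hypothalamus, 2.64 ± 0.21 (SE, adjusted p = 3.93e-09) for accumbens minus hippocampus and -1.25 ± 0.22 (SE, adjusted p = 1.03e-04) for hypothalamus minus hippocampus. Of the summed RPKM of the beta genes, Scn4b took 28.3% ± 3.62 (SD, n = 6) in the accumbens and 3.23% ± 0.945 (SD, n = 6) in the hippocampus. Scn2b was the highest beta gene per length in the hypothalamus, at 64.2 ± 9.53 RPKM (SD, n = 5), and in the accumbens, at 77.6 ± 6.95 RPKM (SD, n = 6). In the hippocampus Scn3b was highest, at 128 ± 10.5 RPKM (SD, n = 6).

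The low-voltage T-type calcium channels, which open near rest and set burst firing, were split by region. Cacna1g (Cav3.1), known for thalamic bursting, stood at 258, 209, 196, 234 and 160.3 CPM in hypothalamic libraries 1 to 5, 87.9 to 159.7 CPM with a median of 139 in the accumbens and 74.8 to 125 CPM with a median of 86.0 in the hippocampus. Cacna1h (Cav3.2), another T-type channel, went the opposite way, with 173, 123, 131, 135 and 56.9 CPM in the hypothalamus, 104 to 184 CPM with a median of 124 in the accumbens and 310.2 to 470.5 CPM with a median of 378 in the hippocampus. For both genes the hypothalamic and hippocampal libraries did not overlap. Hypothalamus minus hippocampus was 1.17 ± 0.16 (SE, adjusted p = 4.97e-06) for Cacna1g and -1.61 ± 0.21 (SE, adjusted p = 3.41e-06) for Cacna1h. Accumbens minus hippocampus was -1.48 ± 0.20 (SE, adjusted p = 7.20e-06) for Cacna1h. Cacna1g was lower in the accumbens than in the hypothalamus, at -0.68 ± 0.16 (SE, adjusted p = 0.00355). Per length, Cacna1h at 38.8 ± 6.14 RPKM (SD, n = 6) was the highest of all 10 alpha1 genes in the hippocampus, and took 25.0% ± 3.62 (SD, n = 6) of their sum there, against 5.97% ± 1.13 (SD, n = 6) for Cacna1g. In the accumbens Cacna1g, Cacna1h and Cacna1i stood within their spread, at 13.0 ± 2.46, 13.9 ± 3.21 and 13.7 ± 3.74 RPKM (SD, n = 6).

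Of the 6 P/Q, N, R and L-type channel genes tested, 4 were lower in the hypothalamus than in the hippocampus. Of these genes 1, Cacna1s, was higher (1.07, adjusted p = 0.0177), where 21.1% of all genes were called lower and 22.9% higher. Cacna1s lies near the floor. Over all infusions its mean was 0.896 CPM in the hippocampus, within the floor range of 0.362 to 1.22 CPM, and 2.25 CPM in the hypothalamus. Cacna1e (Cav2.3, R-type) stood at 215, 171, 264, 232 and 137 CPM in hypothalamic libraries 1 to 5, 382 to 510.4 CPM with a median of 416 in the accumbens and 417 to 705 CPM with a median of 537 in the hippocampus. All hypothalamic libraries lay below those of both other regions, and the differences were -1.42 ± 0.16 (SE, adjusted p = 3.59e-07) for hypothalamus minus hippocampus and 1.06 ± 0.16 (SE, adjusted p = 5.04e-05) for accumbens minus hypothalamus. Cacna1a (Cav2.1, P/Q-type), which triggers fast transmitter release, was lower than in the hippocampus in the hypothalamus (-0.93, adjusted p = 2.25e-05) and the accumbens (-0.99, adjusted p = 9.01e-06). Cacna1b (Cav2.2, N-type) was the highest alpha1 gene per length in the hypothalamus, at 27.8 ± 6.76 RPKM (SD, n = 5), and the accumbens, at 26.4 ± 2.39 RPKM (SD, n = 6), and passed in none of the 3 comparisons (0.17, 0.10 and -0.07, adjusted p = 0.350, 0.663 and 0.727). Cacna1c (Cav1.2), the main L-type channel of brain, differed from hippocampus by -1.40 ± 0.19 (SE, adjusted p = 2.96e-06) in the hypothalamus and -0.76 (adjusted p = 0.00181) in the accumbens. Cacna1d (Cav1.3), the L-type channel that opens at lower voltage, was lower in the hypothalamus than in the hippocampus (-0.69, adjusted p = 0.00320). L-type channels of retina and skeletal muscle were scarce: Cacna1f had 208 counts over the 52 libraries and was not tested between regions under saline, and Cacna1s had 436.

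Of the alpha2delta subunits, which carry channels to the cell surface and bind gabapentin in the case of Cacna2d1 and Cacna2d2, Cacna2d2 set the hippocampus apart. It stood at 20.8 to 65.3 CPM with a median of 34.0 there, 233, 217, 202, 184 and 135 CPM in hypothalamic libraries 1 to 5 and 153 to 307 CPM with a median of 251 in the accumbens. No hippocampal library overlapped the other regions, and the differences from hippocampus were 2.39 ± 0.25 (SE, adjusted p = 1.21e-07) and 2.74 ± 0.24 (SE, adjusted p = 2.43e-08). Cacna2d3 was the reverse for the hypothalamus, lower than in the hippocampus by 1.16 ± 0.16 (SE, adjusted p = 4.79e-06) and higher in the accumbens than in the hypothalamus by 1.06 ± 0.16 (SE, adjusted p = 5.33e-05) on the log2 scale. Cacna2d2 took 44.1% ± 7.07 (SD, n = 5) of the summed alpha2delta RPKM in the hypothalamus and 43.6% ± 9.49 (SD, n = 6) in the accumbens, against 9.29% ± 4.66 (SD, n = 6) in the hippocampus. In the hippocampus Cacna2d1 and Cacna2d3 stood within their spread, at 23.6 ± 5.26 and 22.6 ± 4.17 RPKM (SD, n = 6), and Cacna2d1 passed in none of the 3 comparisons. Cacna2d4, known from photoreceptors, had 588 counts over the 52 libraries.

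The 4 intracellular calcium channel beta subunits, which release the pore from retention and raise its opening, were all lower in the hypothalamus than in the hippocampus, by 0.43 (Cacnb1) to 0.80 (Cacnb3) on the log2 scale. Each of these differences passed the test. Of the calls, that of Cacnb3 was lost without the low-count filter (-0.79, adjusted p = 0.0508) and that of Cacnb4 without the GC-leaning libraries (-0.41, adjusted p = 0.115). Cacnb4, the beta subunit mutated in the lethargic mouse, was highest in the accumbens, at 143 to 219 CPM with a median of 158, against 65.3 to 129.5 CPM with a median of 96.5 in the hippocampus and 48.0, 40.1, 71.1, 79.7 and 38.6 CPM in hypothalamic libraries 1 to 5. No accumbens library overlapped another region, and the differences were 1.61 ± 0.20 (SE, adjusted p = 7.80e-06) from the hypothalamus and 0.85 ± 0.19 (SE, adjusted p = 0.00151) from the hippocampus. Over 26 alternative fits the difference from the hypothalamus ran from 1.02 to 1.77, and the call held in all 26. Per length, Cacnb1 had the highest mean in the hypothalamus at 17.6 ± 3.30 RPKM (SD, n = 5) and in the accumbens at 19.9 ± 1.87 RPKM (SD, n = 6), where Cacnb4 at 18.8 ± 3.24 RPKM (SD, n = 6) was within the spread. Cacnb3 had the highest mean in the hippocampus at 27.6 ± 11.1 RPKM (SD, n = 6).

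Among the gamma genes, Cacng2, Cacng3 and Cacng4 encode AMPA receptor auxiliary proteins (Cacng2 encodes stargazin), and each had its own pattern. Cacng4 stood at 103, 109.9, 95.2, 69.1 and 201 CPM in hypothalamic libraries 1 to 5 and 72.1 to 108 CPM with a median of 95.6 in the accumbens, against 25.4 to 37.3 CPM with a median of 30.8 in the hippocampus, with no overlap with the hippocampus. Its differences from hippocampus were 1.89 ± 0.20 (SE, adjusted p = 1.78e-07) and 1.57 (adjusted p = 2.16e-06). Cacng3 was lowest in the hypothalamus, at 23.4, 33.4, 19.0, 19.6 and 26.3 CPM, with 35.8 to 44.5 CPM with a median of 41.3 in the hippocampus and 41.3 to 77.2 CPM with a median of 54.8 in the accumbens, and accumbens minus hypothalamus was 1.21 ± 0.16 (SE, adjusted p = 1.68e-05). Cacng2 was called higher in the hypothalamus than in the accumbens (-0.62, adjusted p = 0.0121, accumbens minus hypothalamus), but the value was -0.17 (adjusted p = 0.509) without the GC-leaning libraries and -0.53 (adjusted p = 0.0646) without the accumbens libraries that hold Neurod6. Its call against the hippocampus, 0.47 (adjusted p = 0.0353), held in 13 of 26 alternative fits, and the difference was 0.077 (adjusted p = 0.73) without the GC-leaning libraries and 0.26 (adjusted p = 0.17) without hypothalamic library 5. Cacng4 took 47.6% ± 5.68 (SD, n = 5) of the summed gamma RPKM in the hypothalamus, 39.5% ± 5.03 (SD, n = 6) in the accumbens and 20.0% ± 2.38 (SD, n = 6) in the hippocampus. That sum takes Cacng6, Cacng7 and Cacng8 at the very low counts given below. The shares therefore describe only the gamma genes that were counted, and are too high where those genes were missed.

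Cacng5, another gamma gene of the brain, stood at 7.11 ± 1.20 RPKM (SD, n = 5) in the hypothalamus, 7.58 ± 1.11 RPKM (SD, n = 6) in the hippocampus and 7.53 ± 1.39 RPKM (SD, n = 6) in the accumbens. It passed in none of the 3 comparisons (adjusted p = 0.674, 0.983 and 0.718), and neither did Cacna1i or Cacna2d4. The remaining gamma genes gave little or nothing. Cacng1, the skeletal muscle gamma subunit, had 80 counts over the 52 libraries. Cacng6, Cacng7 and Cacng8 are listed with 0, 1 and 4 counts in all, although Cacng7 and Cacng8 are known as brain genes. They lie at 3332955 to 3435667 on chromosome 7. The nearby gene Myadm, with 41 counts, was also near 0, while Oscar had 749 and Ndufa3 5348. The cause of these low counts was not tested, and no level is drawn from them.

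**Figure D3:**
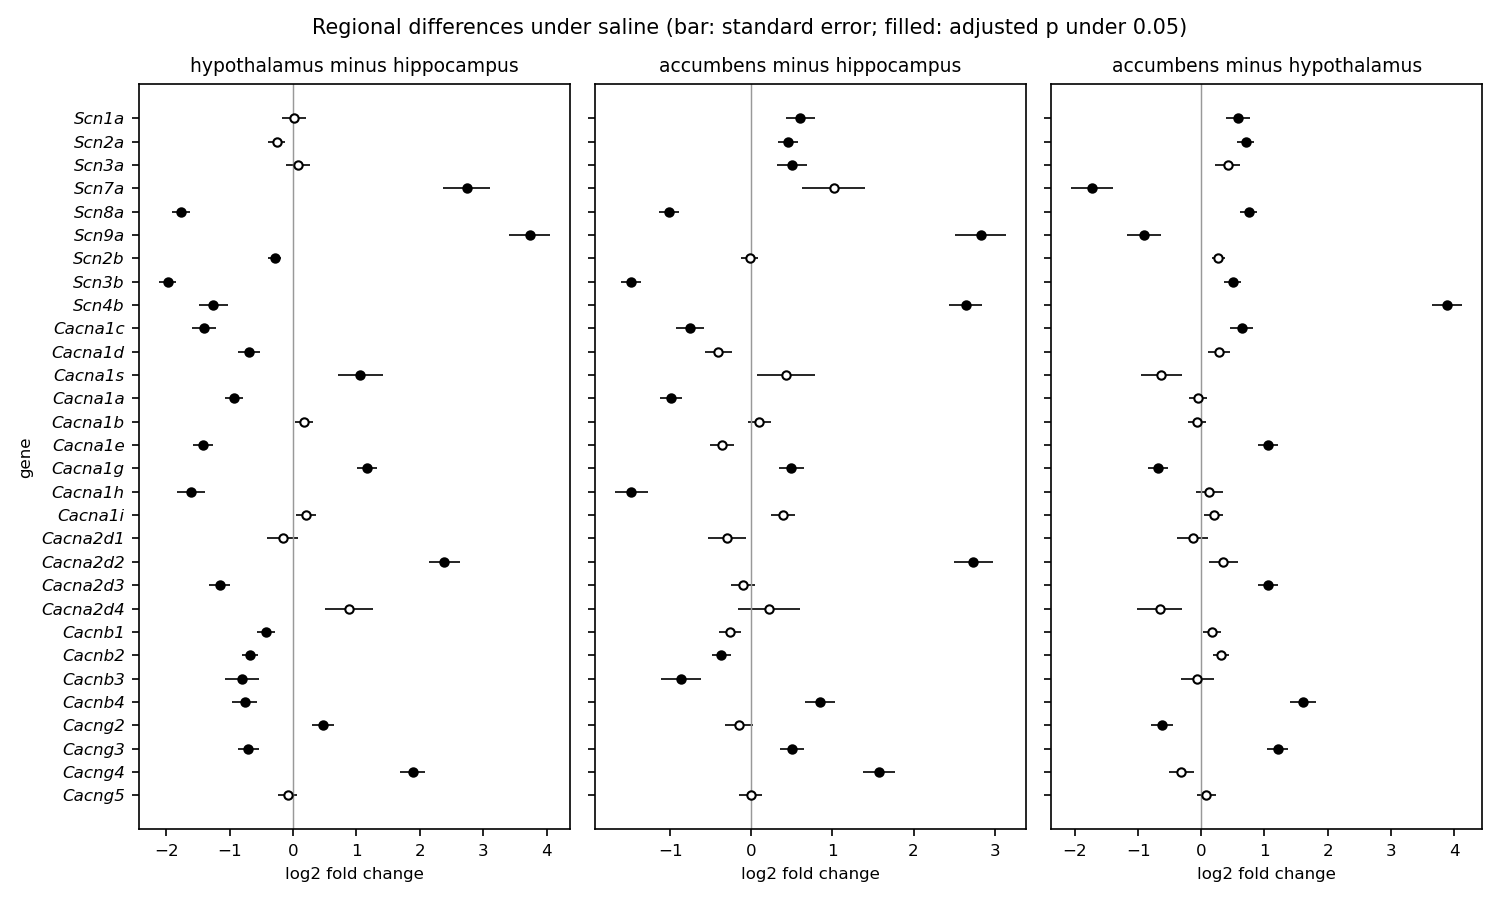
Log2 difference between regions under saline for 30 of the members tested, one panel for each pair of regions, with bars of ± 1 SE from edgeR. Filled points have an adjusted p under 0.05 over all genes tested. Scn9a lies farthest to the right for hypothalamus minus hippocampus among the members drawn, and Scn4b does so for accumbens minus hypothalamus.

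Of the 24, 19 and 14 regional calls, 19, 14 and 8 held in every one of 26 alternative fits, and the direction held in 24, 19 and 13, Scn1a between accumbens and hypothalamus being the exception. Beyond the genes treated above, the calls lost in at least 1 fit were those of Cacna1s and Scn2b for hypothalamus against hippocampus, Cacnb2, Cacng3 and Cacna1g for accumbens against hippocampus, and Cacna1c and Scn3b for accumbens against hypothalamus. Leaving out 1 library ended the call of Cacna1s (0.85, adjusted p = 0.0554, without hippocampal library 2; 0.88, adjusted p = 0.0614, without hypothalamic library 3) and that of Scn2b (-0.29, adjusted p = 0.0516, without hypothalamic library 1; -0.22, adjusted p = 0.0867, without hypothalamic library 5). For Cacnb2 leaving out accumbens library 1 or 4 or hippocampal library 3 or 5 did so, with values of -0.31 to -0.34 and adjusted p = 0.0555 to 0.0694. The single library whose removal ended the call of Scn1a between accumbens and hypothalamus was hypothalamic library 1, 2 or 5 or accumbens library 5 or 6 (0.49 to 0.56, adjusted p = 0.0517 to 0.0833). For Scn3a between accumbens and hippocampus, leaving out any of 11 of the 17 libraries ended the call, with values of 0.43 to 0.53.

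Insulin was compared with saline within each region. In the hypothalamus at the low rate, 4 of the 32 members tested rose and 0 fell by edgeR's quasi-likelihood test: Cacnb4, Scn1a, Scn2a and Scn3a. That is 12.5%, where 5.38% of all 14139 genes tested were called, 3.59% higher and 1.78% lower. Before adjustment, 12 of the 32 members and 4221 of the 14139 genes had a p under 0.05. The median log2 difference of the members was 0.04, against -0.02 for all genes. By subfamily, 3 of the 7 sodium channel alpha genes tested and 1 of the 4 calcium channel beta genes rose. None of the 4 sodium channel beta, 9 calcium alpha1, 4 alpha2delta or 4 gamma genes tested passed in that fit. Cacnb4, Scn1a, Scn2a and Scn3a were also called higher by DESeq2 and limma-voom, with 11.9% and 7.66% of all genes called. DESeq2 called Cacnb1 (-0.40, adjusted p = 0.0284) and Cacng4 (-0.59, adjusted p = 0.0463) lower too. With all 52 libraries in 1 fit, edgeR called Cacnb4, Scn1a and Scn4b (1.32, adjusted p = 0.0474) higher and Cacng4 (-0.60, adjusted p = 0.0447) lower. Scn2a and Scn3a did not pass there, and 734 of 14985 genes did.

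Cacnb4 stood at 48.0, 40.1, 71.1, 79.7 and 38.6 CPM in hypothalamic saline libraries 1 to 5 and at 87.7 to 122 CPM with a median of 103 in the 6 low-rate libraries. All 6 lay above every saline library, as in 1.44% of all genes. The means were 103 ± 13.3 CPM (SD, n = 6) against 55.5 ± 18.8 CPM (SD, n = 5), a log2 difference of 0.92 ± 0.17 (SE, adjusted p = 0.0109). Scn1a stood at 115, 106, 161, 216 and 119 CPM under saline and at 193 to 462 CPM with a median of 255 at the low rate, with 5 of 6 libraries above all saline ones and a difference of 1.02 ± 0.23 (SE, adjusted p = 0.0244). The highest value was that of low-rate library 2, which also held Neurod6 at 6.12 CPM. Scn2a stood at 235, 215, 293, 341 and 246 CPM under saline and at 307 to 497 CPM with a median of 441 at the low rate, again with 5 of 6 libraries above all saline ones and a difference of 0.67 ± 0.16 (SE, adjusted p = 0.0312). Scn3a, with 76.8, 59.0, 102, 120.2 and 55.6 CPM under saline and 96.3 to 165 CPM with a median of 137 at the low rate, had 4 of 6 libraries above all saline ones and a difference of 0.70 ± 0.19 (SE, adjusted p = 0.0419).

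**Figure D4:**
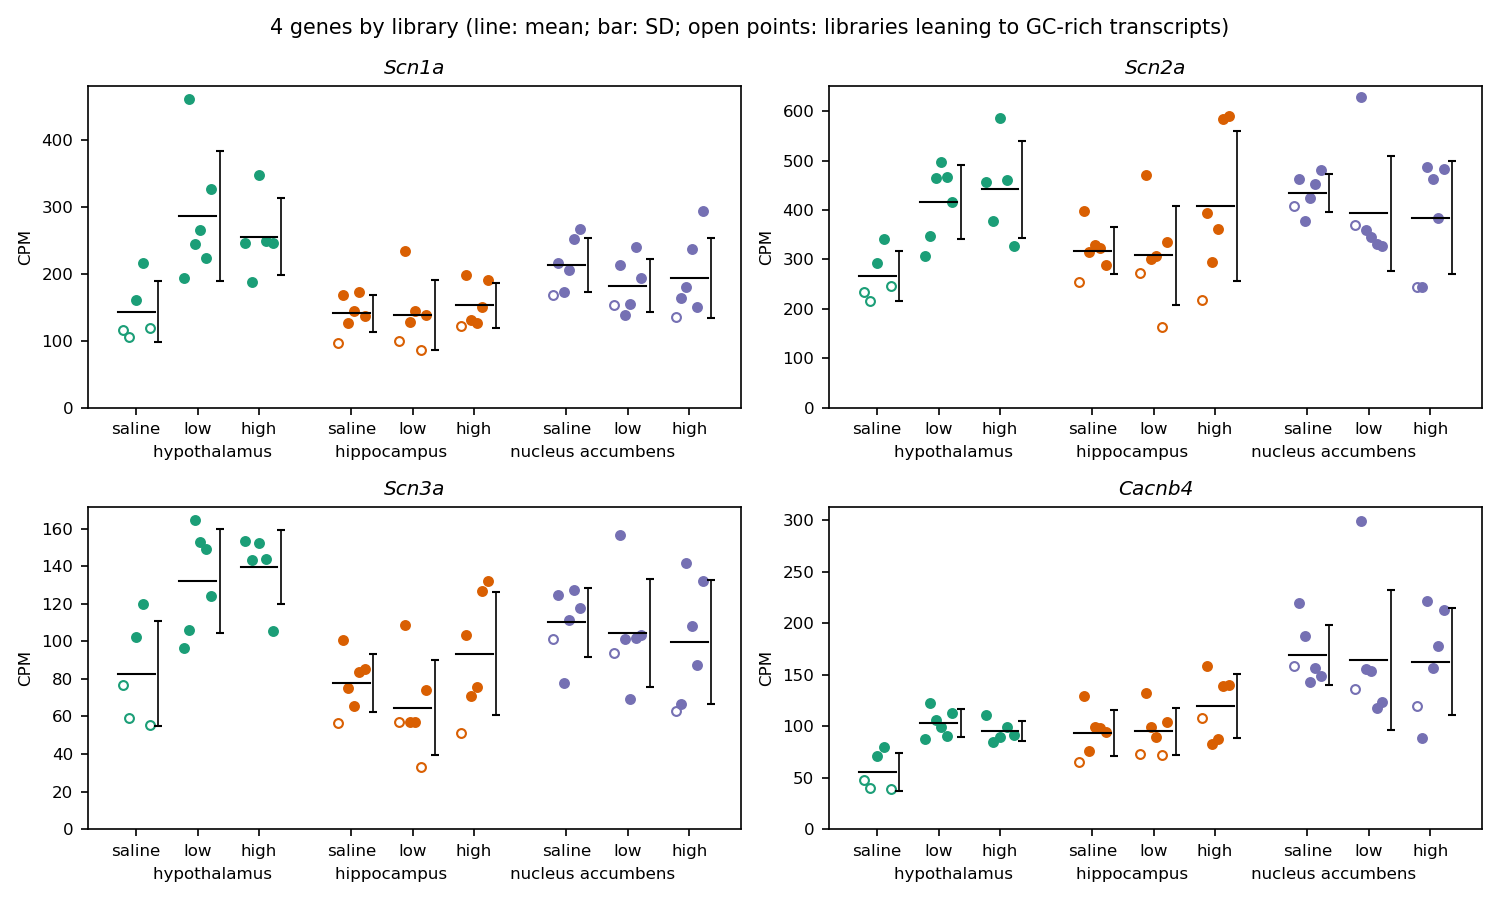
CPM of Scn1a, Scn2a, Scn3a and Cacnb4 in each of the 52 libraries, by region and infusion, with the mean of each group as a line and its SD as a bar. Open points are the 10 libraries that lean towards GC-rich transcripts. In the hypothalamus the open points are saline libraries 1, 2 and 5, which are the 3 lowest of the region for each gene, and in the other regions the infusions overlap.

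These calls depended on which libraries and terms entered the fit. Library titles carry a tag number, whose 3 ranges and 8 runs of neighbouring numbers may mark batches. With the tag range, the tag run or the GC lean as a term, or without the GC-leaning or the peptide-lacking libraries, 0 of the 32 members were called, and with the length lean 1 was. Without the 3 GC-leaning saline libraries, which leaves 2, the differences were 0.48 for Cacnb4 (adjusted p = 0.761), 0.63 for Scn1a, 0.41 for Scn2a and 0.27 for Scn3a. Leaving out single libraries kept the call of Cacnb4 in 16 of 16 fits (adjusted p = 0.00141 to 0.0477), that of Scn1a in 11, that of Scn2a in 8 and that of Scn3a in 4. Over the same 16 fits the adjusted p ran from 0.00355 to 0.0966 for Scn1a, from 0.00674 to 0.119 for Scn2a and from 0.00659 to 0.149 for Scn3a, while the differences stayed at 0.82 to 1.21, 0.59 to 0.77 and 0.59 to 0.87. Scn1a lost its call without saline library 1, 2 or 5 or low-rate library 2 or 6. Scn2a lost its call without any of those 5 and without low-rate library 3, 4 or 5, and Scn3a without any of these 8 and without high-rate library 1, 2, 3 or 4. The count of members called was 1 without saline library 1 or 2 or low-rate library 2 or 6. It was 2 without saline library 5 or low-rate library 3, 4 or 5, 7 without saline library 3 or low-rate library 1, and 11 without saline library 4.

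The differences went with transcript GC content. All 8 members below 45% GC were above 0 at the low rate, with a median of 0.64, against 10 of 15 members between 45% and 55% (median 0.06) and 1 of 9 above 55% (median -0.25). The 4 genes that rose are among the most AT-rich members, at 40.5% GC (Cacnb4), 42.1% (Scn3a), 43.3% (Scn1a) and 43.4% (Scn2a). Spearman's rho between log2 difference and GC content was -0.757 across the 32 members and -0.617 across 14088 genes. It describes genes of the same libraries, which are not independent. The correlation of a library's deviation with GC content ran from -0.227 to 0.7 in the saline libraries, from -0.608 to 0.287 in the low-rate ones and from -0.6 to 0.157 in the high-rate ones. Across the 16 hypothalamic libraries the level went with that lean at rho = -0.841 for Scn3a, -0.812 for Scn2a, -0.665 for Scn1a and -0.591 for Cacnb4. For Cacnb3, a GC-rich member, rho was 0.918. The fits with the lean as a covariate and without the leaning libraries are those given above.

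**Figure D5:**
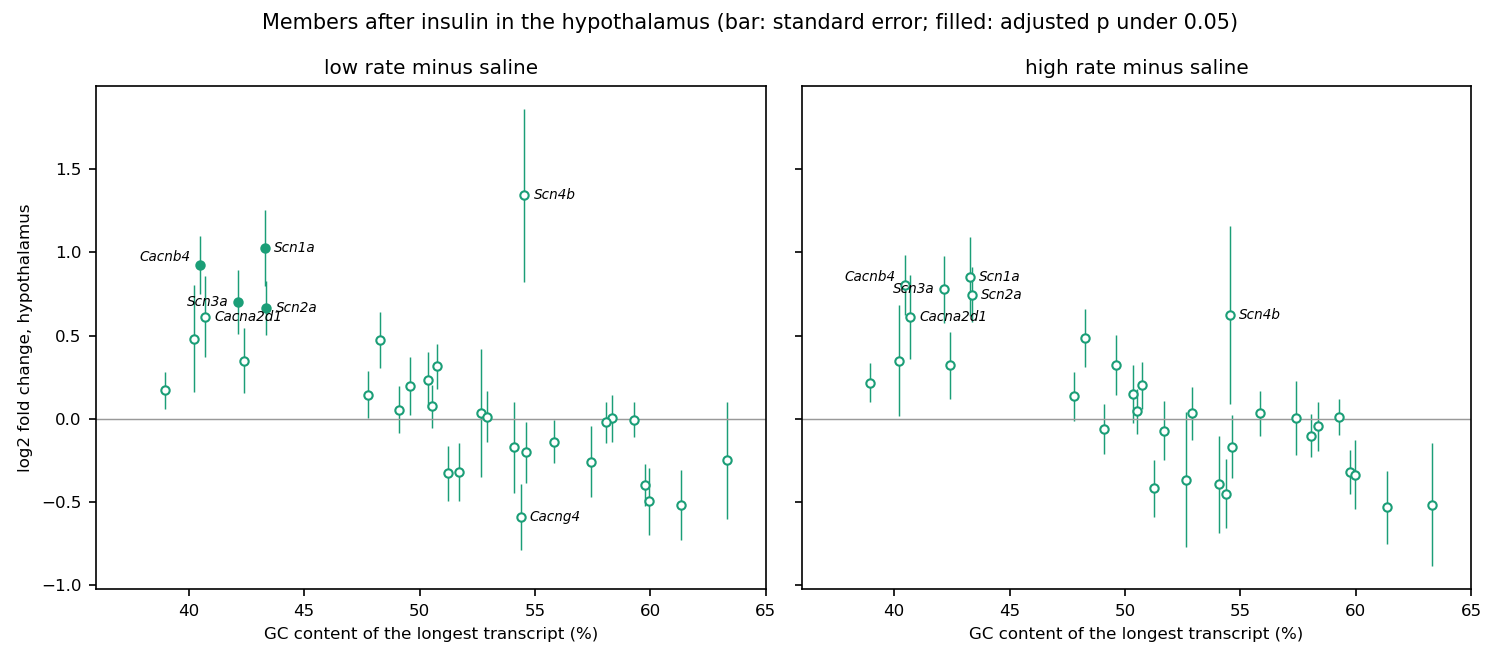
Log2 difference from saline in the hypothalamus against the GC content of the longest transcript, in percent, for the 32 members tested, at the low rate and at the high rate. All 8 members below 45% GC lie above 0 at both rates, and 1 of 9 (low rate) and 3 of 9 (high rate) members above 55% GC do.

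Other hypothalamic members missed the threshold at the low rate in the fit of the 3 infusions of that region. Cacna1e differed by 0.47 (adjusted p = 0.0860) and Cacna2d1 by 0.61 (adjusted p = 0.108), and on the other side stood Cacng4 at -0.59 (adjusted p = 0.0734), Cacnb1 at -0.40 (adjusted p = 0.0650) and Cacnb3 at -0.52 (adjusted p = 0.114). Scn4b had the widest difference, 1.34 ± 0.52 (SE, adjusted p = 0.107), and the widest spread. Its low-rate libraries 1 to 6 stood at 43.6, 142, 20.7, 16.4, 19.4 and 63.9 CPM, against 23.4, 21.0, 14.5, 25.9 and 18.3 CPM under saline. The 3 highest, 1, 2 and 6, are those lacking a hypothalamic peptide gene. The summed peptide level was 43.8 to 1273 CPM at the low rate against 805 to 1606 CPM under saline. The summed astrocyte marker level was 2591 to 3723 CPM against 1864 to 3133 CPM, and 3 of its 5 genes had a difference above 0. So did 2 of 5 striatal genes tested (median -0.282) and 2 of 4 cortical and hippocampal excitatory genes tested (median 0.595). The part of any of these in the Scn4b value was not tested.

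At the high rate 0 of the 32 hypothalamic members were called by edgeR's quasi-likelihood test, where 0.184% of all genes were (0.177% higher and 0.00707% lower). Before adjustment 10 members (31.2%) had a p under 0.05, against 24.1% of all genes. DESeq2 called 4 members and 2.54% of all genes, and limma-voom 1 member and 0.375%. The high-rate and low-rate comparisons share the saline libraries. Cacnb4 stood at 111, 84.9, 89.7, 99.5 and 91.5 CPM in high-rate libraries 1 to 5, all above every saline library, as in 1.61% of all genes, and differed by 0.80 ± 0.18 (SE, adjusted p = 0.0673). Scn2a stood at 458, 377, 587, 461 and 327 CPM, with a difference of 0.75 ± 0.17 (SE, adjusted p = 0.0673), and 4 of 5 libraries lay above all saline ones. Scn3a stood at 154, 143, 152, 144 and 105 CPM, with a difference of 0.78 ± 0.20 (SE, adjusted p = 0.0970), and the lowest, library 5, lacks a peptide gene. Scn1a stood at 247, 188, 348, 249 and 246 CPM, with a difference of 0.85 ± 0.23 (SE, adjusted p = 0.108). Leaving out saline library 3 gave 3 calls and leaving out saline library 4 gave 8.

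Between the 2 insulin rates no hypothalamic member was called by edgeR's quasi-likelihood test, DESeq2 or limma-voom, and 0 members stood at an unadjusted p under 0.05. The smallest p belonged to Cacng5 (0.25), Scn4b (-0.72) and Cacna2d2 (0.17), each with an adjusted p of at least 0.9999. Without the libraries lacking a peptide gene the difference of Scn4b was 0.015.

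In the hippocampus and the nucleus accumbens no member passed the threshold at either insulin rate. Of 31 members tested in each, 0 were called for low against saline, high against saline or high against low by edgeR's quasi-likelihood test, and DESeq2 and limma-voom also called 0. With edgeR the background was 0% of 13515 genes in the hippocampus and 0% of 13769 in the accumbens. DESeq2 called 38 genes (0.281%) for low against saline in the hippocampus, and edgeR over all 52 libraries called 101. Before adjustment, 1, 1 and 6 hippocampal members had a p under 0.05 (3.23%, 3.23% and 19.4%, against 6.05%, 2.61% and 2.84% of all genes), and 1, 1 and 0 accumbens members did (3.23%, 3.23% and 0%, against 1.42%, 2.37% and 2.12%). The hippocampal members with the smallest p were Cacna2d4 (0.73, adjusted p = 0.822), Cacng4 (0.37) and Cacna1h (-0.33) at the low rate, and Cacng2 (-0.29), Cacnb4 (0.35) and Scn2a (0.36) at the high rate. The summed hippocampal level of 4 choroid plexus markers was 65.3 to 1429 CPM under saline and 89.5 to 6226 CPM at the low rate, and the ranges overlapped. At the low rate all 4 had a difference above 0 (median 2.14), and 0 were called. So had 5 of 5 oligodendrocyte genes (median 0.96) and 3 of 3 ependymal genes tested (median 1.78), again with 0 called. The part of these markers in the member differences was not tested. In the accumbens the members with the smallest p were Cacna2d3 (0.45), Scn2b (0.18) and Scn4b (0.41) at the low rate, with Cacna1g (-0.36) and Cacng5 (0.23) at the high rate. Between the rates the members with the smallest p were Cacng4 (-0.56), Cacna2d4 (-0.88) and Cacng2 (-0.27) in the hippocampus and Cacna1a (-0.21) and Cacng5 (0.28) in the accumbens.

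The 4 genes that rose in the hypothalamus can be set beside the other regions. Cacnb4 stood at 65.3 to 129.5 CPM with a median of 96.5 under saline and 72.3 to 133 CPM with a median of 93.9 at the low rate in the hippocampus, and at 143 to 219 CPM with a median of 158 and 118 to 299 CPM with a median of 145 in the accumbens. Scn1a stood at 96.1 to 173 CPM with a median of 141 and 85.9 to 234 CPM with a median of 133 in the hippocampus, and at 169 to 267 CPM with a median of 211 and 139 to 241 CPM with a median of 174 in the accumbens. The infusions overlapped for both genes in both regions. Whether the response differed between regions was tested as an interaction over all 52 libraries with edgeR's quasi-likelihood test, and 0 of the 34 members tested were called in any of 6 interactions, nor was any of the 14985 genes (0%). Before adjustment a p under 0.05 was found for 7 members between hypothalamus and hippocampus and 7 between hypothalamus and accumbens at the low rate (20.6% each, against 24.3% and 14.1% of all genes). At the high rate it was found for 1 and 7 (2.94% and 20.6%, against 9.5% and 18.8%). The low-rate difference of Scn1a in the hypothalamus minus that in the accumbens was 1.23 ± 0.31 (SE, adjusted p = 0.169), and minus that in the hippocampus 1.03 ± 0.31 (SE, adjusted p = 0.114), on the log2 scale. For Cacnb4 the difference from the accumbens was 0.95 ± 0.30 (SE, adjusted p = 0.218), and for Cacng4 that from the hippocampus was -0.98 ± 0.26 (SE, adjusted p = 0.103). A response particular to the hypothalamus was not shown.

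Genes whose products act on these channels were followed as a list of 24 regulators, among them the fibroblast growth factor homologous factors that bind sodium channel tails, the ankyrins that anchor channels, and the small GTPases that bind calcium channel beta subunits. In the hypothalamus at the low rate 3 of the 23 tested rose and 1 fell, with a median of 0.27 (-0.02 over all genes), where 3.59% of all genes were called higher and 1.78% lower. They were the ankyrin genes Ank2 (0.50, adjusted p = 0.0487) and Ank3 (0.44, adjusted p = 0.0411), Unc80 of the sodium leak channel complex (0.82, adjusted p = 0.0142), and the GTPase gene Rrad (-1.40, adjusted p = 0.0294). None of these 4 was called with the tag range, the tag run or the GC lean as a term, or without the GC-leaning or the peptide-lacking libraries. When single libraries were left out, Ank2 and Ank3 each kept the call in 3 of 16 fits (those without saline library 3 or 4 or low-rate library 1). Unc80 kept it in 14, all but those without saline library 1 or 2, and Rrad in 10, all but those without saline library 1, 2 or 5 or low-rate library 2, 3 or 6. At the high rate, and at both rates in the other regions, 0 regulators were called. Between regions under saline 4 regulators were higher and 13 lower in hypothalamus than in hippocampus, 6 were higher and 8 lower in accumbens than in hippocampus, and 14 were higher and 2 lower in accumbens than in hypothalamus, of 23 tested each time, where 44.1%, 27.9% and 29% of all genes were called. Fgf13 was lower than in the hippocampus by 1.75 in the hypothalamus and 1.73 in the accumbens on the log2 scale. Of 15 genes of the AMPA receptor complex, with which the gamma proteins associate, 0 were called under insulin in any region. Of all genes, 5.38% were called in the hypothalamus at the low rate, 0.184% there at the high rate and 0% in the other regions. With shares this low, 0 of 15 does not set these genes apart. Under saline 1 (Gria4) was higher and 11 lower in hypothalamus than in hippocampus with a median of -1.56, where that of the genes tested was 0.05. In accumbens against hippocampus 3 were higher and 10 lower in the accumbens, with a median of -1.05 (0.00 for the genes tested). In accumbens against hypothalamus 5 were higher and 1 lower, with a median of 0.19 (-0.05). Of all genes, 44.1%, 27.9% and 29% were called in these 3 comparisons.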

How the data were processed

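RNA of 3 mouse brain regions was measured in 52 stranded libraries, read as pairs on an Illumina HiSeq instrument, per the labels. The authors deposited 1 table of raw counts of reads per Ensembl gene, not normalized. Alignment to GRCm38.p4 with STAR and counting with featureCounts are named in the submitters' processing notes. Versions, annotation release and the use of strand in counting were not given in the sources used here. Counts per gene merge isoforms and can include PCR duplicates.

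Symbols, positions and exon lengths came from GENCODE M21, which matched 45229 of the 46071 identifiers, and promoter sequences from RefSeq. The members, the 2 partner lists and the alternatives were chosen with earlier results of these data known. The text gives in full each member called under insulin, otherwise the 3 with the smallest p, and between regions up to 4 called members in each direction with the largest difference plus the highest member of each subfamily. Other members were named to account for every subfamily, with their values seen. The counts include 2 members whose own values are not reported here.

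Each region was fitted with its 3 infusions, the regions were compared in the 17 saline libraries, and interactions in all 52 libraries. Fits used edgeR 4.0.16 under R 4.3.3 with TMM scaling, filterByExpr and the robust quasi-likelihood test (2-sided), with Benjamini-Hochberg adjustment over all genes tested and calls at 0.05. CPM values use TMM factors over all 52 libraries, and RPKM divides them by the summed exon length. The steps were tested on simulated counts. Alternatives were DESeq2 size factors, no low-count filter, DESeq2 1.42.0, limma-voom (limma 3.58.1), the tag number of the library titles as 3 ranges or 8 runs (possible batches), each library's GC or length lean as a covariate, all 52 libraries in 1 fit, and leaving out GC-leaning libraries, peptide-lacking libraries, accumbens libraries with Neurod6 or each library in turn. The tag run and the length lean were added after seeing the data. All 125 pairs of libraries within groups differed by more than sampling noise (chi-square per gene of 3.71 to 51.2), so none was merged. The number of reads limits precision, and fits take libraries as independent.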

Additional observations from a re-analysis of the deposited data

Results flagged for a closer look

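The levels of the named members were examined for a single library far from the others in groups of 4 to 10 libraries, and 6 of the 83 pairs of gene and group held one. Chance gives about 1 in 20 groups. In the hypothalamus, Scn3a was 105 CPM in high-rate library 5 against 143 to 154 CPM in the other 4, and Cacna2d2 was 252 CPM in high-rate library 3 against 175 to 193 CPM. High-rate libraries 3 and 5 are both among those lacking a hypothalamic peptide gene. In the hippocampus, Cacng2 was 92.7 CPM in saline library 1 against 63.5 to 71.3 CPM in the other 5. In the accumbens, Cacna1e was 510 CPM in saline library 2 against 382 to 429 CPM, Cacng5 was 39.0 CPM in saline library 3 against 24.0 to 29.0 CPM, and Cacng5 was 52.6 CPM in high-rate library 5 against 28.3 to 32.0 CPM. Saline library 3 and high-rate library 5 of the accumbens are among those holding Neurod6 above 5 CPM.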

How the results depend on the processing

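In the hypothalamus at the low rate, 4 members were called in the main fit, and DESeq2 also called Cacnb1 and Cacng4. The count was 0 with the tag range, the tag run or the GC lean as a term and without the GC-leaning or the peptide-lacking libraries, 1 with the length lean, and 1 to 11 when each library was left out in turn. The same settings moved the count over all genes from 760 to 29, 16, 22, 3, 24 and 176, in that order. At the high rate, where 0 were called, the count was 2 without the low-count filter, 4 by DESeq2, 1 by limma-voom, 3 with the length lean, and 0 to 8 without single libraries, while the count over all genes moved from 26 to 50, 359, 53 and 60 under the first 4 of these. Regional counts stayed within 1.5 times the main count in every fit: without single libraries they ran from 22 to 26, 17 to 24 and 13 to 17 for hypothalamus against hippocampus, accumbens against hippocampus and accumbens against hypothalamus. The insulin comparisons in hippocampus and accumbens, high against low in the hypothalamus and the interactions gave 0 members in every alternative. Of the named members, the difference of Scn4b between the rates in the hypothalamus changed sign, from -0.72 to 0.015, without the peptide-lacking libraries, and its cause was not tested. No paired analysis was possible because replicate numbers follow accession order. The tag run as a term, given above, compares libraries with neighbouring tags. At these depths, members under the floor of 3 counts gave no detectable level.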
